A study of Mus musculus with 3 samples.

Results

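Class 2 lamina-associated domains are the 407 domains to which the authors gave the class number 2, out of 1128 domains on 19 autosomes. They were taken by that number alone. The title of the series ties the classes to patterns of repressive histone methylation, and how the authors made them is not given in the sources used here. The study sequenced RNA from 3 lines of mouse embryonic fibroblasts, numbered 1 to 3 here, which were derived independently from a single colony and cultured alike, with no treatment named. Each line gave 1 library, so the spread between libraries holds both line and technical differences, and the lines form 1 group with nothing to contrast. The deposited table gives a count for each domain and not for each gene, so a count in a domain with several genes cannot be assigned to any of them. The labels name all 3 samples iMEF, with the descriptions WT23T, WT47T and WT78T for lines 1, 2 and 3. They give no other genotype, no embryo age and no account of how the lines were established.

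Lamina-associated domains (LADs) are long stretches of chromatin that touch the nuclear lamina, the protein mesh under the inner nuclear membrane. They tend to be poor in genes, replicate late and carry repressive marks, among them methylation of histone H3 at lysine 9 and lysine 27. Genes inside them are mostly weakly transcribed, and many belong to other lineages than the cell studied, such as receptors of sensory neurons, while some genes leave the lamina when they are switched on. A CpG-rich promoter is typical of genes that many cell types use, and a CpG-poor promoter is typical of genes restricted to few tissues.

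The starting points of the genes that class 2 LADs hold were poor in CpG dinucleotides. Promoters of 300 bases (250 before and 50 after the start, RefSeq, build GRCm38.p6) could be matched for 308 of the 567 coding genes that start inside a class 2 LAD. Their median was 4.5 CpG, against 16 CpG over the 13819 matched coding genes of the whole annotation, 3 CpG in class 1 LADs and 8 CpG in class 3 LADs. Median GC content was 48.0% in class 2 promoters and 57.7% in all matched promoters. The motif GGGCGG, which Sp1 family factors are known to bind, was on either strand of 28.6% of class 2 promoters and 51.6% of all promoters. TATAAA was on either strand of 18.8% of class 2 promoters and 11.3% of all, and CCAAT of 38.3% and 39.1%. A match describes letters in the window and not binding.

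The 6 promoters printed here show this range, and they were chosen from the 32 class 2 LADs that overlap exactly 1 coding gene, where that gene starts inside and has a matched promoter. Cenpw, Hecw2 and Focad belong to the LADs with the highest scaled counts among those that hold no near-identical pseudogene (defined below), and Bank1, Fshb and Pkib to the longest silent ones. Each sequence is written 5′ to 3′ on the strand of its gene, and capitals mark CpG.
Cenpw: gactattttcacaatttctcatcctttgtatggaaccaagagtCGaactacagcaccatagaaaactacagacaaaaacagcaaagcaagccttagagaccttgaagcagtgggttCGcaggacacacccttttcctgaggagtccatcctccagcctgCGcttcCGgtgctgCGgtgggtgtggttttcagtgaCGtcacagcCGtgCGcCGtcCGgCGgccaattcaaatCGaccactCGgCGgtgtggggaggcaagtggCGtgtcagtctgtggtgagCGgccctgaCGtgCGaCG
Hecw2: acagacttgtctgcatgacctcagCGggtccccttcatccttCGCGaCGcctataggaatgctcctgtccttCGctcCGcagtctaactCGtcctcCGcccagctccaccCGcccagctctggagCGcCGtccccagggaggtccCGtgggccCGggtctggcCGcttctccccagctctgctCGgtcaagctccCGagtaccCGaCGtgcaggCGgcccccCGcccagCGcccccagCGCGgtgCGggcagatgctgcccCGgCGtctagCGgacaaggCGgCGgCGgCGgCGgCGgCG
Focad: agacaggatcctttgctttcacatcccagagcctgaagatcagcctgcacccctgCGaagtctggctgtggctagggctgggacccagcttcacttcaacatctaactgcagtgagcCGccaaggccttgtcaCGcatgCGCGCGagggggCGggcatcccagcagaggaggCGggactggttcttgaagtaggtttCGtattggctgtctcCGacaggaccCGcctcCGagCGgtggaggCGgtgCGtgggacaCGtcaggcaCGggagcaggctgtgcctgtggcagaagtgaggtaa
Bank1: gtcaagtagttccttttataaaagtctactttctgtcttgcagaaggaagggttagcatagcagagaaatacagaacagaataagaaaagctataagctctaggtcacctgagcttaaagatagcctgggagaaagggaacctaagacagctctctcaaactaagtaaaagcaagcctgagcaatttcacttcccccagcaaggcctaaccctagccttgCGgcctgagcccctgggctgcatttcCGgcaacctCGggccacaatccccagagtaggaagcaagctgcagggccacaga
Fshb: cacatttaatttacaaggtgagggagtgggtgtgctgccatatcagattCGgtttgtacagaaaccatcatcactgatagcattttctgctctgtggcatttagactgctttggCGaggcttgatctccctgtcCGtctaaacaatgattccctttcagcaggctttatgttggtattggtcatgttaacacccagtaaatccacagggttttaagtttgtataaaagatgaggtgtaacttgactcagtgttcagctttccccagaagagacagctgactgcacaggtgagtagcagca
Pkib: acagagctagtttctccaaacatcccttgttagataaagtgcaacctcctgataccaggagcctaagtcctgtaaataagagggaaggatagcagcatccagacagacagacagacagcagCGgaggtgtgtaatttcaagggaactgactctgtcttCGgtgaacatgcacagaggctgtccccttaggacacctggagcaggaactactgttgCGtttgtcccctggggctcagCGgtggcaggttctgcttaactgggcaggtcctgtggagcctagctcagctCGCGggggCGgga

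Cenpw encodes a kinetochore protein that dividing cells need. Its promoter, at chr10:30200491-30200790 on the minus strand, held 19 CpG, and the LAD around it had 1120 counts in line 1, 1473 in line 2 and 1614 in line 3. Hecw2 encodes a ubiquitin ligase, and its promoter at chr1:54194985-54195284 on the minus strand held 34 CpG. Its LAD had 459, 498 and 468 counts in lines 1, 2 and 3. Focad, which encodes focadhesin, has its promoter at chr4:88094380-88094679 on the plus strand with 17 CpG, and 362, 404 and 378 counts were found in its LAD. All 9 of these values lie far above the 3 counts used below as the detection floor.

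Bank1 encodes a scaffold protein of B cells, and its promoter at chr3:136326017-136326316 on the minus strand held 3 CpG. The LAD had 0 counts in each of the 3 lines. Fshb encodes the hormone-specific subunit of follicle-stimulating hormone, made in the pituitary. Its promoter at chr2:107059602-107059901 on the minus strand held 3 CpG, and its LAD had 0, 2 and 0 counts. Pkib encodes an inhibitor of protein kinase A, its promoter at chr10:57631731-57632030 on the plus strand held 7 CpG, and its LAD had 2, 0 and 0 counts. On either strand, TATAAA was in the promoters of Bank1 and Fshb, CCAAT in those of Cenpw, Focad and Fshb, and GGGCGG in those of Hecw2, Focad and Pkib. The 6 examples were picked for their counts, so the difference between their counts is no result.

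Over all 32 LADs with such a single gene, levels were highest, in each line, where the promoter was richest in CpG. Level is given here as transcript density, the count per 1000000 counts that a line had in all LADs (CPM), divided by the length of the LAD in Mb, on the scale log2(CPM per Mb + 1). The 11 LADs whose promoter held 13 to 43 CpG had median densities of 8.9995, 9.26 and 8.56 in lines 1, 2 and 3, and the 11 LADs with 1 to 4 CpG had 6.32, 4.90 and 5.55. The difference on this log2 scale was 3.35 ± 0.89 (SD, n = 3 lines), positive in 3 of 3 lines, and 1.13 ± 0.11 for pooled density. An exact two-sided sign-flip permutation test over the lines gave p = 0.25, the smallest value that 3 lines allow. All tests over lines named here are this test, so none could reach 0.05. The middle 10 LADs, with 5 to 12 CpG, had median densities of 6.36, 4.60 and 6.71, close to the CpG-poor ones. Spearman's rho across the 32 LADs was 0.43 between CpG and density and 0.11 between CpG and LAD length, as a description.

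**Figure D1:**
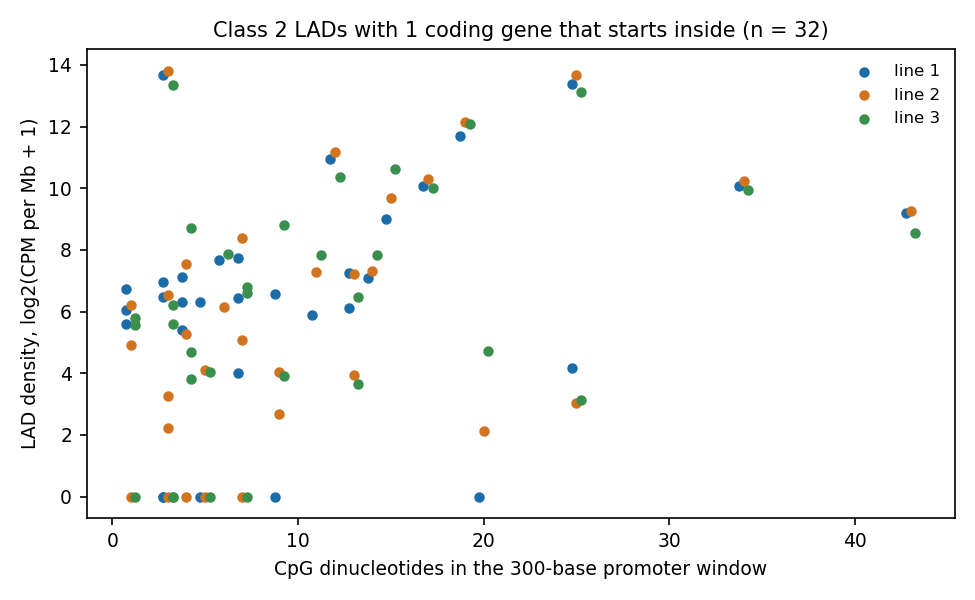
Transcript density of the 32 class 2 LADs with 1 coding gene, which starts inside and has a matched promoter (y axis, log2 of CPM per Mb plus 1) against the CpG dinucleotides in the 300-base promoter window (x axis), with 1 point for each LAD and line. No LAD with 13 or more CpG was silent, and 4 of the 21 others were. The Wilson interval over LADs for the CpG-rich set, 0% to 25.9%, includes the 20.1% of all class 2 LADs that were silent. These numbers of silent LADs thus do not separate the sets. The CpG-rich set also holds the LAD of Spag16, with 0, 2 and 17 counts in the lines.

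Single-gene LADs are also where a gene can be named beside its counts, and the genes in this paragraph were chosen after their values were seen. Slc7a11 encodes the cystine transporter that feeds glutathione synthesis, and its LAD had 188, 238 and 630 counts in lines 1, 2 and 3. Egfr encodes the receptor of epidermal growth factor, and its LAD had 70, 107 and 240 counts. Line 3 was highest in both. Dach1, a transcription cofactor of organ development, had 217 counts in its LAD in line 1 and 44 and 41 in lines 2 and 3. The LAD of Hgf, which encodes hepatocyte growth factor, had 61, 9 and 35 counts. Tmem26, a membrane protein, had 76, 12 and 394 counts in its LAD, so the lines were spread widest there. P2ry1, a receptor for extracellular ADP, stood in the LAD with the highest counts of the 32 (6005, 7022 and 5635), and that LAD also holds a near-identical pseudogene.

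Class 2 LADs were mostly short and held few counts each. The shortest was 17.5 kb long, the median 300 kb and the longest 8660 kb, and together they covered 261.6 Mb of the 1178 Mb in LADs. They held 364915 of the 1566086 counts in line 1, 322571 of 1496099 in line 2 and 427764 of 1726062 in line 3, which is 23.2% ± 1.61 (SD, n = 3). The median class 2 LAD had 34 counts in line 1, 22 in line 2 and 40 in line 3. Its median density was 5.88, 5.02 and 5.65, a mean of 5.52 ± 0.45 on the log2 scale. The labelled cell type could not be checked from these counts, because 0 of 16 fibroblast marker genes lie in any LAD. Of 2 immune markers Ptprc, the leukocyte phosphatase CD45, lies in a class 2 LAD with Nr5a2, and that LAD had 55, 31 and 56 counts.

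Density differed with what a class 2 LAD overlaps in the GENCODE M21 annotation. A coding exon was present in 237 of the 407 LADs (58.2%), against 90.5% of class 1 and 79.5% of class 3. Median densities were 7.94, 7.99 and 8.29 in lines 1, 2 and 3 where a coding exon was present and 3.89, 2.51 and 3.35 in the 170 LADs without one. The difference was 4.82 ± 0.72 on the log2 scale (SD, n = 3 lines; exact sign-flip permutation p = 0.25), with the same sign in 3 of 3 lines. LADs in which a coding gene starts (n = 167) had medians of 7.74, 7.44 and 8.22. The 70 LADs that hold exons of a coding gene that starts outside had 8.21, 8.37 and 8.95, no lower than where a gene starts inside, although this difference was not tested. The 116 LADs with exons of noncoding genes or pseudogenes only had 4.31, 3.52 and 4.28, and the 45 with no annotated exon had 3.36, 0 and 0.

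**Figure D2:**
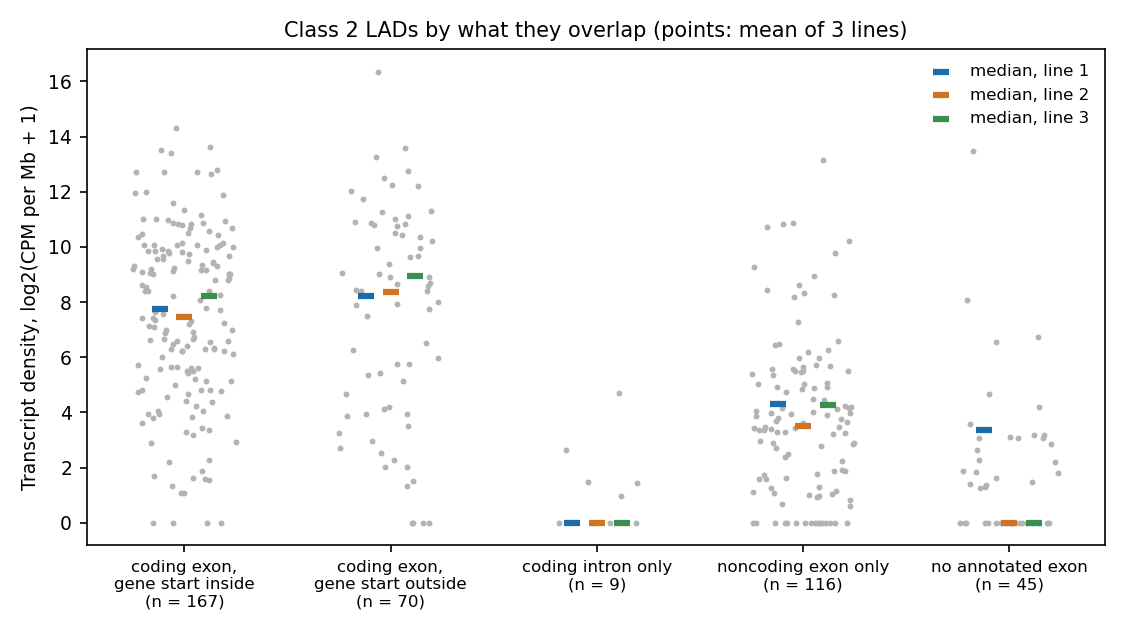
Transcript density of the 407 class 2 LADs (y axis, log2 of CPM per Mb plus 1) by what they overlap in GENCODE M21 (x axis, with the number of LADs). Grey points are the mean of the 3 lines for each LAD, with a seeded sideways spread, and coloured bars are the median in each line. Both groups with coding exons have medians above 7, and all groups without them have medians below 4.5.

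Where a class 2 LAD lay wholly inside an intron of a coding gene, almost nothing was counted. There were 9 such LADs, and 7 of them had no more than 3 counts in any line. This was not particular to introns, since 29 of the 45 class 2 LADs with no annotated exon also met that limit. Of the 116 with noncoding exons only 30 did. The 9 were short, with a median of 167 kb against 492 kb for class 2 LADs with coding exons. Cadm2, a synaptic cell adhesion molecule, Erbb4, a neuregulin receptor, Macrod2, a macrodomain hydrolase, and Plcl1, a phospholipase-like protein, each contain a LAD with 0 counts in all 3 lines. The LAD in Rbfox1, a splicing factor of neurons and muscle, had 0, 0 and 2 counts, and that in Rgs6, a regulator of G protein signalling, had 2, 2 and 0. Pcdh9, a protocadherin, contains a pair of them, with 2, 0 and 0 counts and with 4, 6 and 2 counts. The LAD in Magi2, a scaffold protein of cell junctions, had 0, 0 and 6 counts. The pooled density of the 9 LADs, their summed CPM over their summed length, was 3.72, 3.89 and 4.21 CPM per Mb, against 1051, 967 and 1139 CPM per Mb for all class 2 LADs with coding exons. Class 3 has 5 LADs of this kind, with a pooled density of 78.9 ± 33.2 CPM per Mb (SD, n = 3 lines).

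A second feature of the annotation also moved with the counts. Pseudogene copies of coding genes lie scattered through LADs, and reads from an expressed parent gene can align to a copy that is nearly the same. How the authors treated reads with several alignments is not given in the sources used here. Pseudogenes that match a coding transcript at 95% identity or more across a minimum of 300 aligned bases (near-identical pseudogenes) were found in 103 of the 407 class 2 LADs. Whether the matched gene was expressed, or the copy processed, was not checked. Some matched genes are olfactory receptors, such as Olfr290 and Olfr295, and Gm16285 matches Tc2n, which lies in the same LAD. Among the LADs with noncoding exons only, the 26 with such a pseudogene had a pooled density of 683, 696 and 541 CPM per Mb in lines 1, 2 and 3, and the 90 without had 35.9, 19.0 and 28.7. A single LAD, at chr9:32976481-33878977, carried much of the first value, and without it the other 25 had 294, 279 and 188 CPM per Mb. Median densities were 7.37, 6.52 and 6.08 with such a pseudogene and 3.54, 2.59 and 3.68 without. None of the 26 was silent, and 30 of the 90 were. Among the LADs with coding exons the 77 with a near-identical pseudogene had 1440 ± 87.0 CPM per Mb and the 160 without had 582 ± 90.7 (SD, n = 3 lines), with no overlap between the lines of both sets. LADs with such a pseudogene were also longer, with a median of 985 kb. The part of these copies in the counts was not tested.

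Counts were concentrated in few class 2 LADs. Its 10 top LADs by mean CPM held 41.5%, 46.5% and 44.8% of all class 2 counts in lines 1, 2 and 3, a mean of 44.3% ± 2.54, and 13 LADs reached 50% of class 2 CPM. The 203 LADs with the lowest mean CPM held 0.353% ± 0.061 of the counts. Every one of the 8 highest held at least 1 near-identical pseudogene, against 103 of all 407 class 2 LADs. CPM is not divided by length, and such pseudogenes go with length. Of the 102 longest class 2 LADs 43 held none, and of the 102 shortest 97 held none. The part of length in the 8 was not tested.

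**Figure D3:**
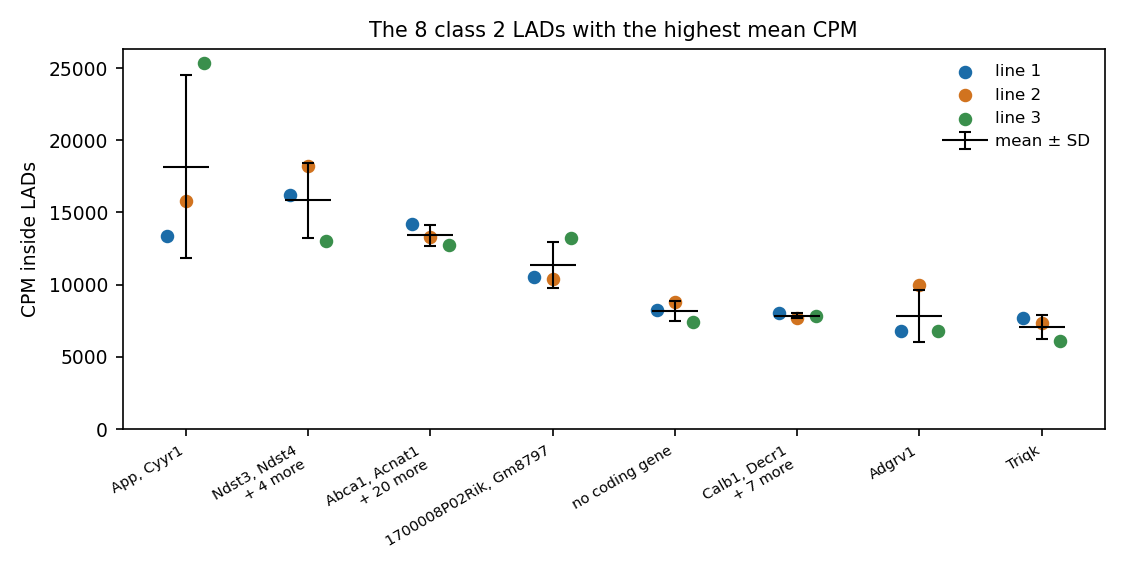
CPM inside LADs (y axis, linear from 0) for the 8 class 2 LADs of highest mean CPM (x axis, named by coding genes that they overlap). Coloured points are the 3 lines, and black bars are the mean and SD. The LAD of App stands out in line 3, at 25333 CPM against 13375 and 15819.

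The highest of all was the LAD at chr16:84876899-85749395 (872 kb), which holds App, the gene of the amyloid precursor protein, and Cyyr1. It had 20947, 23667 and 43727 counts in lines 1, 2 and 3, or 18176 ± 6318 CPM (SD, n = 3), and line 3 stood above the other lines. The LAD also holds Gm2541, whose sequence is 98.3% identical to Dnajb6 over 722 bases, and Gm6278, which is 95.8% identical to the ribosomal protein gene Rplp0 over 665 bases. The counts of the gene and of the copies cannot be separated in the table.

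The LADs next in rank held from 2 to 22 coding genes each. The LAD at chr3:123603220-125963211 covers Ndst3 and Ndst4, which modify heparan sulfate, and Ugt8a, which makes the galactolipids of myelin, and had 25425, 27233 and 22537 counts. It holds Gm4617, 99.1% identical to the prothymosin gene Ptma over 334 bases. The LAD at chr4:48720770-53105755 has 22 coding genes, among them Abca1 for cholesterol efflux, Smc2 for the condensin complex, Rnf20 for ubiquitination of histone H2B and Grin3a for a glutamate receptor subunit. It had 22193, 19922 and 22007 counts, which lie close together, and 3 near-identical pseudogenes. The LAD at chr3:5598593-7298587 had 16487, 15576 and 22804 counts, and its coding genes are 1700008P02Rik and Gm8797. Gm8797 is itself 99.0% identical over 310 bases to a transcript of Ubb, a ubiquitin gene on another chromosome.

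Line differences were small in most of the remaining LADs with coding genes. Runx1t1, a corepressor, Calb1, a calcium-binding protein, Decr1, an enzyme of fatty acid oxidation, and 6 more coding genes lie in the LAD at chr4:13833380-15933373, which had 12550, 11513 and 13500 counts or 7843 ± 160 CPM. Adgrv1, an adhesion receptor of hair cells, crosses the LAD at chr13:81028086-81120584, which is only 92.5 kb long and had 10646, 14879 and 11696 counts. That LAD holds Gm8399, 98.6% identical over 1125 bases to Actg1, the gene of gamma-actin. Triqk is the only coding gene of the LAD at chr4:12228386-13325881, which had 12004, 11040 and 10545 counts and holds Gm11847, 98.1% identical over 1140 bases to Hnrnpa3, a gene of an RNA-binding protein.

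Class 2 LADs without any coding gene could still hold many counts. The highest of them, at chr9:32976481-33878977, had 12938, 13209 and 12833 counts, nearly the same in each line. It holds Gm10698, which is identical (100%) to a transcript of Tmed2, a cargo receptor of the early secretory pathway, over 604 bases. The LAD at chr13:100888023-101668019 had 2478, 1783 and 2540 counts and holds copies of Rpl7a, H3f3a and Hmgb1. The LAD at chr9:78816336-79118834 had 1156, 803 and 802 counts and holds a copy of Carnmt1 with 99.8% identity. In the LAD at chr10:30875983-31283481, which holds a copy of the proteasome gene Psmd2, the lines differed: 826 counts in line 1, 2027 in line 2 and 282 in line 3. Only the LAD at chr18:68621300-68716299, among the 5 highest without a coding gene, had neither an annotated exon nor a near-identical pseudogene, and it had 1760, 1994 and 1502 counts.

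At the other end, 82 of the 407 class 2 LADs (20.1%) were silent, which means that no line had more than 3 counts. The background over all 1128 LADs was 12.1%, and class 1 had 1.71% and class 3 15.1%. The 95% Wilson intervals over LADs overlapped for class 2 (16.5 to 24.3) and class 3 (11.5 to 19.5), and class 1 lay below both (0.83 to 3.49). Class 1 LADs were longer, with a median of 1517 kb against 300 kb in class 2 and 236 kb in class 3. The shares of the classes were not compared at equal length, so they do not separate class from length. Of the 82, 48 had 0 counts in all lines. A floor of 3 counts allows up to 1.92, 2.01 and 1.74 CPM in lines 1, 2 and 3, for counting error only. Silent LADs were short, with a median of 88.7 kb and 9.16 Mb in sum, and 16 of them held a coding exon. A further 68 LADs (16.7%) passed 3 counts in 1 or 2 of the 3 lines, and 257 (63.1%) passed it in all.

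The longest silent LADs include genes of other tissues. The LAD at chr17:59151402-59568899 (417 kb) had 0, 2 and 0 counts, and its neighbour at chr17:59781400-60111398 (330.0 kb) had 0 in each line, and neither holds a coding gene. Tmprss11a, Tmprss11d, Tmprss11f and Tmprss11g, serine proteases of surface epithelia, lie in the LAD at chr5:86312039-86632037, which had 0, 3 and 2 counts. The intronic LAD of Cadm2 at chr16:67251955-67566953 had 0 in each line. Pappa2, a protease that cleaves a binding protein of insulin-like growth factors, lies in the LAD at chr1:158909498-159209496, which had 2, 0 and 2 counts. That LAD holds the near-identical pseudogene Gm4953, 96.0% identical to Atp5h over 472 bases. Such a copy thus did not always go with counts, and 2 of the 103 class 2 LADs with one were silent. The shortest class 2 LAD, 17.5 kb at chr1:130809587-130827086, covers parts of Fcamr and Pigr, receptors for immunoglobulins, and had 0 in each line.

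Silence went with length. Of the 102 shortest LADs (17.5 to 110 kb) 56 were silent, then 22 of 102 (115 to 300 kb), 4 of 101 (300 to 757 kb) and 0 of 102 (780 to 8660 kb). The share fell by 54.9 percentage points from the 102 shortest to the 102 longest (95% Newcombe interval over LADs 44.6 to 64.2). A short LAD with few counts meets the floor more easily than a long one of equal density, so part of this gradient is set by the call itself. Median density was 3.93, 0 and 0 in lines 1, 2 and 3 in the shortest set and 8.02, 7.39 and 8.21 in the longest, a difference of 6.57 ± 2.18 (SD, n = 3 lines; exact sign-flip permutation p = 0.25), positive in 3 of 3 lines. The direction turned when LADs with fewer than 10 counts over the lines were left out (-0.51) and for pooled density (-0.88), so it rests on the short LADs with few counts or none.

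Coding exons and length were linked. Where a coding exon was present, median densities in the shortest set (17.5 to 110 kb) were 7.16, 7.99 and 6.61 (n = 35) and in the longest (780 to 8660 kb) 8.52, 8.17 and 8.67 (n = 88). Where none was present they were 0, 0 and 0 (n = 67) in the shortest and 5.50, 5.16 and 5.22 (n = 14) in the longest set. Among short LADs without a coding exon 47 of 67 were silent, and among short LADs with one 9 of 35 were.

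**Figure D4:**
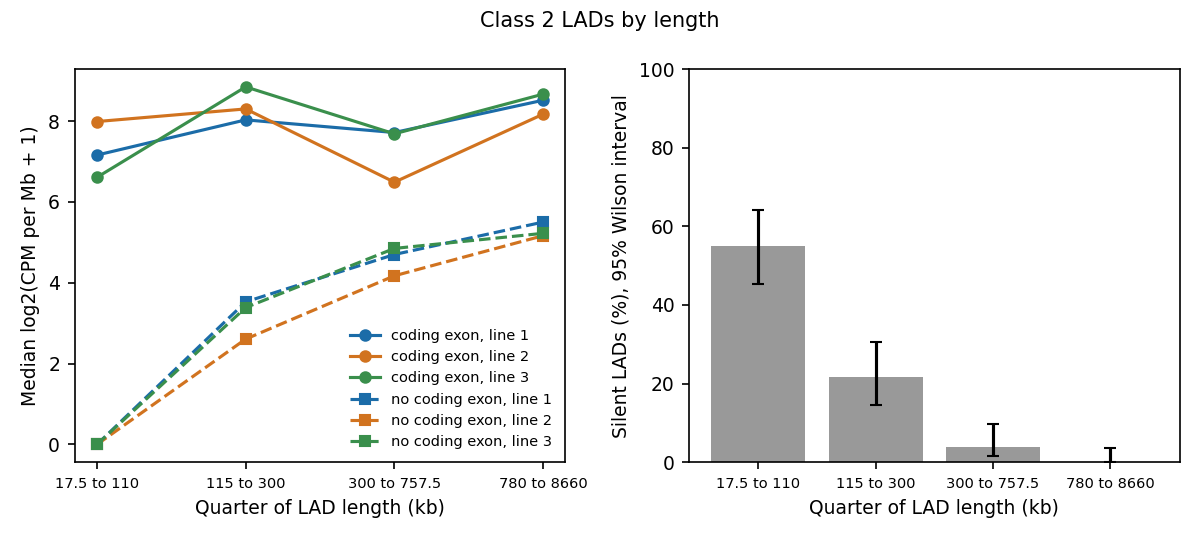
Left, median transcript density (y axis, log2 of CPM per Mb plus 1) of class 2 LADs with a coding exon (circles, solid lines) and without (squares, dashed lines) in 4 sets by LAD length (x axis, kb), in colours for the lines. Right, share of all class 2 LADs of each set with no more than 3 counts in any line, with 95% Wilson intervals over LADs: 54.9%, 21.6%, 3.96% and 0%.

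Class 2 LADs lay close to each other. The gap to the nearest other class 2 LAD had a median of 205 kb, against 1437 kb to the nearest class 1 LAD and 4537 kb to the nearest class 3 LAD. Within 200 kb of another LAD of their own class lay 202 of the 407 (49.6%), against 23.5% of class 1 and 34.6% of class 3. Their nearest LAD of any class was class 2 for 265 (65.1%), class 1 for 95 and class 3 for 47. They stood in 173 runs of consecutive class 2 LADs, 89 of them with a single LAD, and 196 LADs (48.2%) were in runs of 4 or more, against 26.7% of class 1 and 26.6% of class 3. The shortest gap between consecutive LADs in the table was 52.5 kb.

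Density differed less by distance than by coding exons. The 102 LADs farthest from class 1 (median gap 4895 kb) had median densities of 4.84, 4.27 and 4.73 in lines 1, 2 and 3, and the 102 nearest (median gap 132 kb) had 6.13, 5.60 and 5.99. The difference was -1.29 ± 0.033 (SD, n = 3 lines; exact sign-flip permutation p = 0.25), negative in 3 of 3 lines. It was -0.38 among LADs with a coding exon and -2.32 among those without. The 102 LADs farthest from other class 2 LADs were denser than the 102 nearest, at 6.55, 5.42 and 6.22 against 5.39, 4.27 and 4.71, a difference of 1.27 ± 0.21 in 3 of 3 lines (exact permutation p = 0.25) that turned to -0.31 for pooled density. It was 0.21 ± 0.47 among LADs with a coding exon and 0.38 ± 0.71 with at least 10 counts (both exact permutation p = 0.5), where the lines did not share a sign. By distance to class 3 the lines did not share a sign, with differences of 0.22, -0.095 and -0.44 (exact permutation p = 0.75). For position along the chromosome, the 102 LADs with the highest relative position minus the 102 with the lowest gave -0.40 ± 0.16 (exact permutation p = 0.25), negative in 3 of 3 lines. It was -0.0070 ± 0.025 for pooled density and -0.076 ± 0.38 with at least 10 counts (both exact permutation p = 0.75), where the lines did not share a sign. Among LADs with a coding exon it was -1.10 ± 0.31 (exact permutation p = 0.25). Position was taken relative to the end of the last annotated gene.

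The longest run had 15 class 2 LADs in a row, at chr1:52887334-71217275, of which the LADs cover 5.01 Mb. Its pooled density was 201, 208 and 168 CPM per Mb, 6 of its LADs were silent and 8 held a coding exon. The first LAD of the run holds Hibch, an enzyme of valine breakdown, Mstn, the gene of myostatin, and Pms1, a mismatch repair gene, and had 919, 936 and 834 counts. The next, in the ciliary dynein gene Dnah7a, had 6, 2 and 9 counts, and the third is that of Hecw2 shown above. After it came LADs with few counts: the LAD with Cps1, a urea cycle enzyme, and the end of Erbb4, which is 1507 kb long, had 16, 4 and 20, and both LADs in Spag16, a gene of the sperm flagellum, had 0, 2 and 17 and 20, 0 and 9. Counts within the run were thus found mostly at its start.

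The run of 10 LADs at chr12:30632648-44150104 differed between the lines. Its pooled density was 299 CPM per Mb in line 1, 116 in line 2 and 167 in line 3. Etv1, an ETS family transcription factor, Dgkb, a diacylglycerol kinase, and part of Agmo share a LAD with 516, 32 and 200 counts. The LAD with Lrrn3, a neuronal membrane protein, and part of Immp2l had 460, 78 and 558 counts, and the LAD with Meox2, a homeobox factor of mesoderm, had 185, 135 and 388. Line 2 had the lowest CPM in these 3 LADs. It had the highest in 3 others of the run, among them the LAD with Ispd, an enzyme gene of dystroglycan glycosylation, which had 223, 270 and 284 counts or 142, 180 and 165 CPM. The last LAD of the run has no coding gene and had 1139, 282 and 84 counts.

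Of 2 runs of 9 LADs, the one with the longer span, at chr16:62871969-78221919, is nearly closed, since its LADs cover 14.2 Mb of 15.35 Mb. It contains the longest class 2 LAD, 8660 kb at chr16:67671954-76331925, with 10122, 9462 and 10480 counts, or 6286 ± 199 CPM (SD, n = 3), and no near-identical pseudogene. That LAD holds Robo1 and Robo2, receptors of the Slit guidance cues, Nrip1, a corepressor of nuclear receptors, Gbe1, the glycogen branching enzyme, and Hspa13, a chaperone. At the start of the run, the LAD with Epha3, an ephrin receptor, and Pros1, the anticoagulant protein S, had 2230, 1563 and 5726 counts. The following LAD, with Chmp2b of the membrane-remodelling ESCRT machinery, Htr1f, a serotonin receptor, and Pou1f1, a pituitary factor, had 2580, 2487 and 2972. Between them and the longest LAD lie LADs with few counts, including the silent one in Cadm2.

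Chromosomes differed widely in what class 2 LADs cover. They made up 42.9% of LAD length on chromosome 16, 41.0% on chromosome 13 and 38.9% on chromosome 4, and only 2.72% on chromosome 15. Chromosome 4 held 20.1% ± 0.45 of class 2 counts, chromosome 3 19.6% ± 0.23, chromosome 16 13.0% ± 2.39 and chromosome 13 9.94% ± 1.57 (SD, n = 3 lines), and 7 of the 8 highest LADs lie on these 4. Median density was highest on chromosome 9 in lines 1 and 2 and in the mean of the lines, at 8.49, 8.51 and 7.68 (17 LADs). Every line was above the class median there, and in line 3 chromosome 2 was slightly higher, at 7.71. Median density was lowest on chromosome 17, at 2.86, 0 and 0, where 6 of 10 LADs were silent. On chromosome 1 12 of 34 were silent, and on chromosome 6 1 of 26. Another LAD of chromosome 9, chosen after its values were seen, holds a cluster of matrix metalloproteinase genes (Mmp3, Mmp8, Mmp10, Mmp12, Mmp13 and others), enzymes that cut the extracellular matrix, and had 505, 527 and 144 counts.

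**Figure D5:**
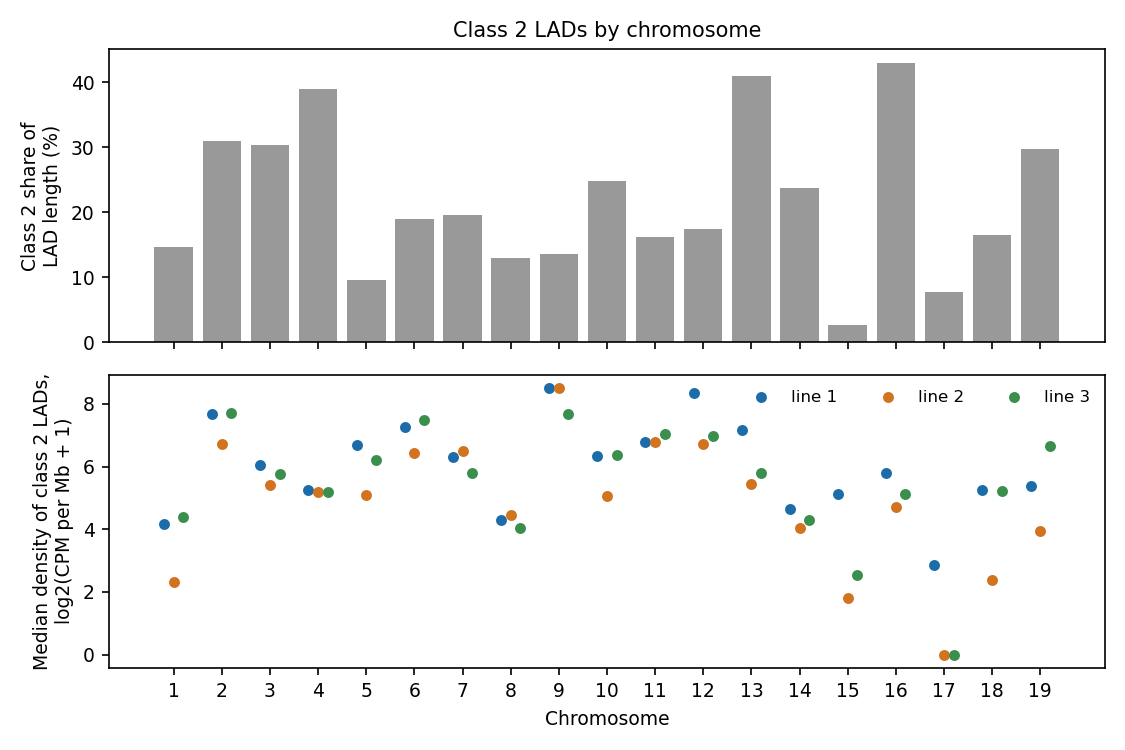
Top, share of LAD length that belongs to class 2 on each autosome (y axis, percent; x axis, chromosome). Bottom, median transcript density of the class 2 LADs of each chromosome (y axis, log2 of CPM per Mb plus 1), with 1 point for each line. Shares run from 2.72% on chromosome 15 to 42.9% on chromosome 16, and medians are 0 in lines 2 and 3 on chromosome 17.

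The gene families that crowd LADs were mostly outside class 2. Of the olfactory receptor genes in LADs 67 lay in class 2, 898 in class 1 and 38 in class 3, and of the vomeronasal receptor genes 20, 273 and 10. Class 2 LADs overlapped 690 coding genes in all, class 1 LADs 3566 and class 3 LADs 787. None of the 48 defensin and 24 keratin genes in LADs lay in class 2, nor any of the 11 cadherin, 11 contactin and 12 GABA receptor genes, which are few. Ionotropic and metabotropic glutamate receptor genes, 6 in class 2, 8 in class 1 and 1 in class 3, touched 8 class 2 LADs. Gria2, an AMPA receptor subunit and the only coding gene of its LAD, went with 84, 52 and 60 counts.

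The 10 class 2 LADs with olfactory receptors had a median density of 6.27 ± 0.36 (SD, n = 3 lines). Among them is the LAD of Abca1, Smc2 and Rnf20 named above, so this median does not describe receptor genes alone. Olfr456, Olfr457 and Olfr458, receptors of the nasal epithelium, lie in a LAD of 62.5 kb with 7, 10 and 7 counts, which at that length are densities of 6.18, 6.75 and 6.04. Both collagen genes of class 2 lay in LADs with many counts. Col11a1, a fibrillar collagen gene, shares its LAD with the amylase genes Amy1 and Amy2a1, with Olfm3 and with Rnpc3, and the counts were 4604, 1554 and 6852, lowest in line 2. Col28a1 and the glycosyltransferase gene C1galt1 lie in a LAD with 3378, 2958 and 4426 counts, which also holds Gm9825, 99.4% identical over 843 bases to Rnps1. Cyp7a1, the rate-limiting enzyme of bile acid synthesis in liver, lies in a LAD with Ubxn2b and Fam110b that had 1594, 1406 and 1667 counts.

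Lines differed by 4-fold or more in 53 of the 253 class 2 LADs whose mean count reached 10 (20.9%). The background over all 839 LADs that reached it was 18.1%, so class 2 was near it. Line 3 was highest in 27 of the 53, line 1 in 20 and line 2 in 6, and line 2 was lowest in 31 (58.5%). Over all classes line 2 was lowest in 94 of 152 (61.8%), a like share. With a single library of each line, these differences have no replicate check. With a mean count of at least 100 asked for, 27 of 166 class 2 LADs were left, against 53 of 253. No share over all classes was taken at that limit. The biological coefficient of variation between lines that edgeR estimated was 0.49 for 219 class 2 LADs, 0.42 for class 1 and 0.47 for class 3.

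The LADs with the widest range had line 3 highest in each case. Ndn, the gene of necdin, an imprinted regulator of growth and neuronal differentiation, is the only coding gene of the LAD at chr7:61369933-62354929, which had 76, 226 and 2036 counts, a 24.3-fold range in CPM. That LAD also holds the near-identical pseudogene Ube2nl, 96.9% identical to Ube2n over 456 bases. Lama4, a laminin chain of basement membranes, and Rfpl4b lie at chr10:37383463-39063456 with 445, 54 and 1871 counts, a 30.03-fold range. Hmcn1, the matrix protein hemicentin, lies with 5 other genes at chr1:150504525-151289521 in a LAD with 110, 6 and 305 counts, a 44.1-fold range. The same LAD holds Ska2l-ps, 97.7% identical to Ska2 over 344 bases. Cacna2d3, a calcium channel subunit, and Lrtm1 lie at chr14:28553731-29036229 with 8, 0 and 68 counts, so line 3 was at least 19.6-fold higher than the floor of 3 counts in line 2. The LAD without a coding gene at chr6:92954354-93651850 had 26, 0 and 122 counts, at least 35.2-fold by the same floor. Line 2 was lowest in 4 of these 5, and line 1 in the LAD of Ndn.

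Neighbouring class 2 LADs shared little of their differences between lines. In 94 pairs of adjacent class 2 LADs both LADs had a mean count of at least 10. Over these pairs, Pearson's r between the deviations of a line from the mean of the lines was 0.12 in line 1, -0.20 in line 2 and -0.082 in line 3. It is a description over pairs that share libraries. Adjacent class 2 LADs lay 52.5 to 15147.5 kb apart, with a median of 191 kb. Between the mean densities of neighbours, Pearson's r was -0.12 over the same 94 pairs and Spearman's rho was 0.22 over all 234 adjacent pairs, whatever their counts.

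Against the other classes, class 2 was compared separately for LADs with and without a coding gene. Without one, class 2 LADs (n = 161) had medians of 3.93, 2.57 and 3.40 and class 1 LADs (n = 39) 5.67, 5.48 and 6.57, a difference of -2.61 ± 0.76 (SD, n = 3 lines; exact sign-flip permutation p = 0.25) in 3 of 3 lines. Pooled over such LADs, class 2 gave 281 ± 35.9 CPM per Mb and class 1 gave 299 ± 28.6, which lie within the spread of the lines. Against class 3 LADs without a coding gene (n = 59; 2.79, 0 and 3.47) the lines did not share a sign, with 1.13, 2.57 and -0.065 (exact permutation p = 0.5). With a coding gene, class 2 (n = 246) had 7.74, 7.39 and 8.11, class 1 (n = 370) 7.81, 7.73 and 7.99 and class 3 (n = 253) 7.85, 7.51 and 8.43. The difference to class 1 was -0.094 ± 0.24 (exact permutation p = 0.75) and that to class 3 -0.19 ± 0.12 (exact permutation p = 0.25). Class 1 LADs hold near-identical pseudogenes more often (262 of 409), and they are also longer, with a median of 1517 kb against 300 kb. Among LADs with a coding gene and no such pseudogene class 2 was 1.16 ± 0.30 above class 1, in 3 of 3 lines (exact permutation p = 0.25). This choice also leaves out long LADs. With coding exons, median lengths were 1862 kb with and 1052.5 kb without such a pseudogene in class 1, and 1142.5 and 349 kb in class 2. The parts of length and of pseudogenes were not tested.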

How the data were processed

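RNA was measured by sequencing in 3 mouse embryonic fibroblast lines, from total RNA and TruSeq libraries per the labels' protocols. The authors deposited 1 table of raw counts per LAD, with the class number (a label, with no unit) in another column. The genome build is mm10 per the submitters' processing notes. The aligner, the counting rule and the treatment of strand and of reads with several alignments are not given in the sources used here. Total counts in LADs ran from 1496099 to 1726062, and the depth outside LADs is unknown. Of class 2 counts of 1 to 20, 84.6% to 89.0% were even, so both mates of a pair may have been counted.

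CPM used column totals over all 1128 rows, and density added a pseudocount of 1 CPM per Mb. Medians were compared within each line, with an exact sign-flip test over the 3 lines. The range between lines used TMM factors (edgeR 4.0.16) and log2(CPM + 1). DESeq2 1.42.0 size factors were an alternative. LADs were overlaid on GENCODE M21, and pseudogene and coding transcripts were aligned with minimap2 2.31-r1302 (asm10). Relative position used the end of the last annotated gene, since no genome sequence was at hand. Medians, the silent call and the range rule were run on simulated data as a check of the code. The simulated spread between lines was smaller than the coefficient of variation of 0.49 estimated for class 2 LADs. The silent call was tried only on mean counts far from its floor or at 0. Such a check gives no error rate for these data. Named LADs were the 8 highest, the 5 highest without coding genes, the 5 longest silent, the 5 with the widest range, the longest, the shortest, the intronic ones and the 3 longest runs, with a tie at 9 LADs settled by span. The class and these lists were chosen with earlier results of these data known, and the intron, pseudogene and CpG comparisons were added after seeing the data. LADs are not replicates, and intervals over them do not cover the spread between lines.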

Additional observations from a re-analysis of the deposited data

How the results depend on the processing

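Of 166 alternative values, 12 changed sign, 5 counts or shares moved and 149 did neither, though for a difference this says only that its sign was kept. The difference by length was -0.51 for LADs with at least 10 counts and -0.88 for pooled density. The difference by distance to class 2 was -0.31 for pooled density. By distance to class 3 it was 0.36 when averaged within shorter and longer LADs, and leaving out each line gave -0.27 to 0.063. Class 2 minus class 3 without coding genes was -1.34 with at least 10 counts. With coding genes it was 0.73 with no division by length. Class 2 minus class 1 with coding genes was 0.63 with at least 10 counts, 0.39 for pooled density, 0.38 averaged within shorter and longer LADs and 1.16 without near-identical pseudogenes, and leaving out each line gave -0.20 to 0.031. The silent share differed by 38.2 points with 0 counts and by 69.6 points with up to 6 counts as the limit. The number of LADs with a 4-fold range was 27 of 166 with a mean count of at least 100, against 53 of 253. Leaving out each line gave 22 to 37, since fewer lines narrow the range. The cause of the other changes was not tested. The mean differences by coding gene, coding exon, promoter CpG, distance to class 1 and position kept their sign in every alternative run, as did class 2 minus class 1 without coding genes (-4.39 to -0.096). For position the lines did not share a sign for pooled density, with at least 10 counts, with no division by length or without coding exons. Nor did they for class 2 minus class 1 without coding genes by pooled density. Alternatives without near-identical pseudogenes, and with or without coding exons only, were chosen after seeing the data. The planned split by GC content of LADs was not run, because no genome sequence was used here. No paired analysis was possible because the samples form 1 group.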
